A study of Mus musculus with 3 samples.

Results

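Alveolar macrophages that showed no RNA of cell division were examined in droplet libraries of mouse tissue labelled non-small cell lung cancer. A cell was taken when its summed UMIs (unique molecular identifiers, which mark single RNA molecules) of Ear1, Ear2, Plet1, Fabp1, Car4 and Krt79 reached 3 and it held no UMI of Mki67, Top2a, Birc5, Cd3e, Cd3d, Cd79a, Ms4a1 or Epcam. This rule was met by 1277 of 29513 cells, 499 in the library PBS, 376 in PD-L1 and 402 in the AI-Exo library. Each group was 1 library of tumour tissue, and its label gives only the name PBS, PD-L1 or AI-Exo, with no strain, dose, time, age, allele or number of animals. The series compared tumour immune cells after drug treatment. A group of 1 library has no replicates, so differences are described by size and carry no test. Brackets give exact 95% intervals (Poisson for levels, Clopper-Pearson for shares) that cover counting error only.

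Alveolar macrophages are the resident phagocytes of the air spaces. They arise from fetal monocytes under GM-CSF and TGF-beta, depend on the transcription factor Pparg, renew themselves by division, and clear surfactant lipid, dust and bacteria through scavenger receptors such as Marco and Mrc1. They normally carry little MHC class II, in contrast to the interstitial and tumour macrophages that express complement C1q. In mouse, Ear1 and Ear2 encode secreted ribonucleases of the eosinophil-associated family, Fabp1 a fatty acid binding protein, Car4 a membrane-bound carbonic anhydrase, Krt79 a keratin, and Plet1 a surface protein.

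The rule leans on a pair of neighbouring genes that are near-copies of each other, shown here because many cells were taken on Ear2 alone. The 250 bases before the annotated starts, from RefSeq (GRCm38.p6), run 5′ to 3′ below, and capitals mark the bases that differ or have no partner in the alignment. Ear1 lies on the minus strand at chr14:43819640-43819889, and Ear2 on the plus strand at chr14:44102404-44102653.
Ear1: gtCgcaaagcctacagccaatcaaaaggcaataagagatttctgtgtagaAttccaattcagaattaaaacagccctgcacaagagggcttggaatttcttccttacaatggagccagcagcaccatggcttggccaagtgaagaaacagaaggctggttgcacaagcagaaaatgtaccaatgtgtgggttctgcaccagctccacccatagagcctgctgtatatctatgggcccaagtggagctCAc
Ear2: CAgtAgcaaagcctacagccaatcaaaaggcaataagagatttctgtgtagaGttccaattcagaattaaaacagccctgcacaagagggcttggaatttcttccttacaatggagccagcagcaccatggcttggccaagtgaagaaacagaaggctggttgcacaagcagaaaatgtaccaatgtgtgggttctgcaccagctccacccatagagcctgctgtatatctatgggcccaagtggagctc
Of 252 aligned positions 246 (97.6%) were identical, and the Ear1 and Ear2 transcripts were 96.1% identical over their lengths of 713 and 719 bases. Counts of Ear1 and Ear2 are therefore uncertain as separate values. In spite of this likeness, UMIs were assigned to Ear2 in many cells that had no UMI of Ear1.

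The data went against the label for many of the cells. In PBS, 215 of the 499 cells had UMIs of a single gene of the 6, and the same held for 74 of 376 cells in PD-L1 and 77 of 402 in AI-Exo. At the other end, all 6 genes were found in 131, 127 and 162 cells of PBS, PD-L1 and AI-Exo. The distribution was thus split in every library, with most cells at 1 gene or at 5 to 6 genes. Cells at the threshold of 3 UMIs numbered 85 in PBS, 37 in PD-L1 and 33 in the AI-Exo library, of which 74, 22 and 22 had Ear2 alone. Cells just outside, at 2 UMIs, numbered 137, 57 and 72, of which 113, 29 and 42 had Ear2 alone. Marco was at 1.42, 4.52 and 8.43 CPM (UMIs per 1000000 UMIs of the summed cells) just inside the threshold and at 0, 9.41 and 1.90 CPM just outside, at or under the level of 3 UMIs in each set, which is 2.71 CPM for the PBS cells with 0. Mrc1, the mannose receptor, was at 21.3, 40.6 and 37.9 CPM just inside and at 24.4, 47.1 and 36.2 CPM just outside.

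**Figure D1:**
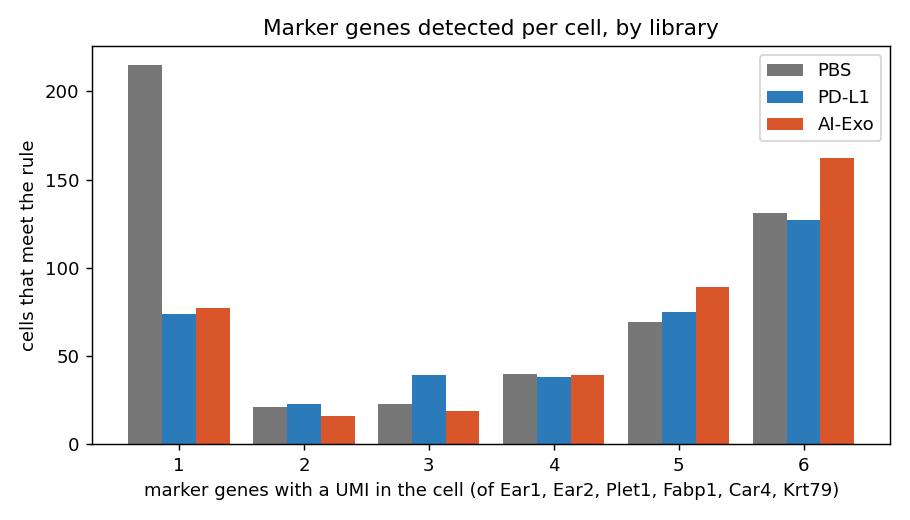
Number of cells that met the rule (vertical axis) by how many of the 6 marker genes had a UMI (horizontal axis), with 1 bar for each library. PBS has its tallest bar at 1 gene (215 cells), whereas PD-L1 and AI-Exo have theirs at 6 genes (127 and 162 cells).

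The 3 kinds of cell below were described apart, a division chosen after the data were seen. Multi-marker cells had UMIs of at least 4 of the 6 genes and a Scrublet doublet score under 0.15, and numbered 225 in PBS, 228 in PD-L1 and 270 in the AI-Exo library (723 in all). Ear2-only cells had no UMI of the other 5 genes and a score under 0.15, and numbered 200, 61 and 60. The remaining 74, 87 and 72 cells had 1 to 3 of the genes or a score of 0.15 or more, and 23, 23 and 30 of them had such a score. Multi-marker cells were 45.1% [40.7 to 49.6] of the cells taken by the rule in PBS, 60.6% [55.5 to 65.6] in PD-L1 and 67.2% [62.3 to 71.7] in the AI-Exo library.

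Genes of alveolar macrophages that the rule did not use separated these kinds. All 21 genes of the identity list, among them Marco, Siglecf, Mrc1, Chil3, Pparg and Ctsk, reached 20 CPM in multi-marker cells of each library, and their summed level was 27768, 27348 and 26329 CPM in the PBS, PD-L1 and AI-Exo libraries. In Ear2-only cells the sum was 3329, 1946 and 2212 CPM, and 10, 12 and 11 of the 21 genes reached 20 CPM. Instead, all 9 markers of nonclassical monocytes, the patrolling monocytes of blood vessels that express Treml4, Ace, Cd300e and Spn, reached 20 CPM in Ear2-only cells of every library. Their summed level there was 2731, 3009 and 3780 CPM, against 481, 513 and 558 CPM in multi-marker cells. The Ear2-only cells are accordingly called here by their rule and not as alveolar macrophages.

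The Ear2-only cells were themselves uneven between libraries. Chil3, which is in both the identity list and the classical monocyte list, was at 2392, 115 and 313 CPM there. The 4 other classical monocyte markers (Ly6c2, Ccr2, Vcan and F13a1) summed to 1166 CPM in PBS against 639 and 513 CPM in PD-L1 and AI-Exo, and to 14.3, 11.9 and 39.0 CPM in multi-marker cells. The 5 neutrophil markers, led by S100a8 and S100a9, summed to 1977, 5184 and 10572 CPM. The 10 markers of interstitial or tumour macrophages summed to 2119, 1824 and 839 CPM. The set therefore held transcripts of several myeloid types in differing amounts. Defining eosinophil genes (Prg2, Epx, Ccr3 and Il5ra) were all at 0 in PBS and AI-Exo, and 1 of the 4 was above 0 in PD-L1, with a sum of 4.71 CPM.

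The remaining cells kept an identity sum of 8686, 14802 and 11107 CPM and carried markers of other types. Endothelial markers such as Cldn5 and Pecam1 summed to 24.9 CPM in PBS, 1311 in PD-L1 and 479 in the AI-Exo library. Neutrophil markers summed to 2796, 7244 and 9275 CPM, and mature dendritic cell markers to 408, 41.5 and 66.0 CPM. Car4, one of the 6 genes, is also made by lung capillary endothelium. These cells were a mixture, and Scrublet's own threshold marked only 1, 0 and 0 cells of the libraries as doublets, so the score cut of 0.15 is the only doublet filter applied.

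**Figure D2:**
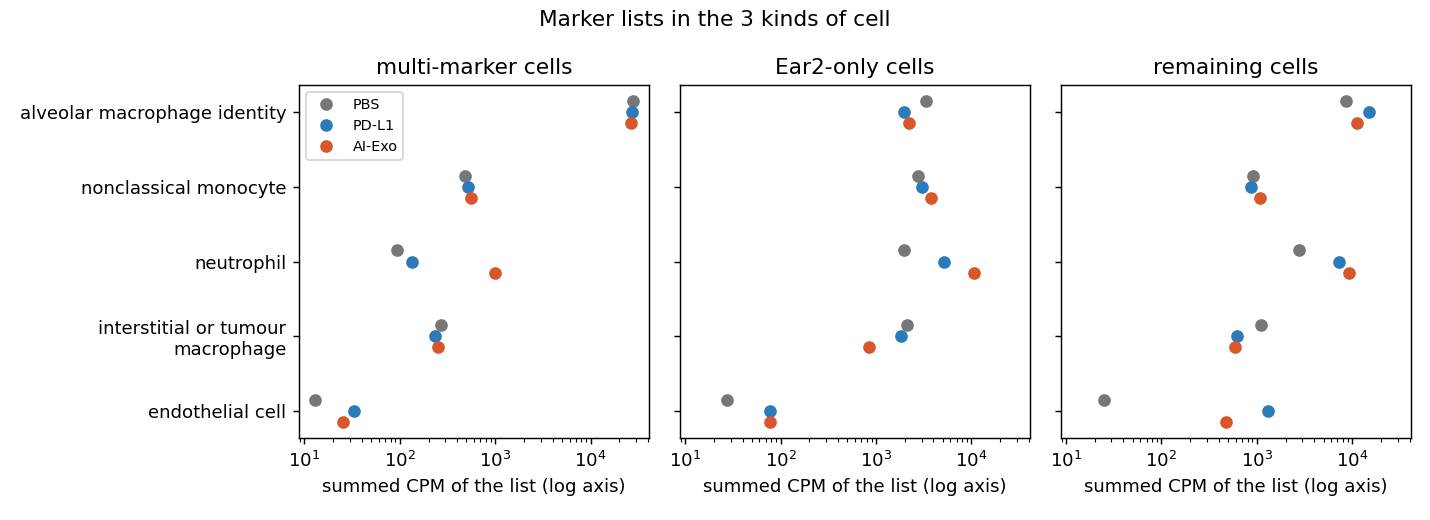
Summed CPM (horizontal log axis) of 5 marker lists (vertical axis) in multi-marker, Ear2-only and remaining cells, with 1 point per library. The alveolar macrophage identity list lies between 26329 and 27768 CPM in multi-marker cells and between 1946 and 3329 CPM in Ear2-only cells.

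The share of all cells that met the rule was 5.33% [4.89 to 5.81] in PBS, 3.88% [3.50 to 4.28] in PD-L1 and 3.84% [3.48 to 4.23] in the AI-Exo library. Multi-marker cells alone made up 2.40% [2.10 to 2.73], 2.35% [2.06 to 2.67] and 2.58% [2.29 to 2.90], with intervals that overlap. Ear2-only cells made up 2.14% [1.85 to 2.45] in PBS, 0.629% [0.482 to 0.807] in PD-L1 and 0.574% [0.438 to 0.738] in the AI-Exo library. The higher share of rule cells in PBS thus lay in the Ear2-only cells. Cells that met the rule had medians of 7885, 9546 and 10154 UMIs in the PBS, PD-L1 and AI-Exo libraries, and multi-marker cells had medians of 9223, 11092.5 and 11134 UMIs. The cell barcodes shared between pairs of libraries numbered 23 to 33. Free RNA could account for at most 1.26% to 1.61% of the UMIs of multi-marker cells.

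Levels of the 6 rule genes are given as a description, since they chose the cells. In multi-marker cells Ear1 was at 1066 [1023 to 1111] CPM in PBS, 925 [888 to 963] in PD-L1 and 702 [673 to 732] in the AI-Exo library, lowest in AI-Exo. Ear2 followed the same order at 2182, 1808 and 1530 CPM. Car4 ran the other way between PBS and AI-Exo, at 657 [623 to 692], 651 [620 to 684] and 962 [929 to 997] CPM. Plet1 was at 1329, 1582 and 1573 CPM, Fabp1 at 672, 609 and 573 CPM, and Krt79 at 367, 316 and 373 CPM. The 6 genes thus followed no common order of libraries.

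Most of the other identity genes stayed within a 1.5-fold range between libraries in multi-marker cells. A ratio is given as log2 after 10 was added to both CPM values, which draws low genes toward 0, and a gene was called higher or lower at a 1.5-fold ratio (0.58 in log2) among genes with a mean of at least 10 CPM. For PD-L1 against PBS, 1 of 21 identity genes was higher and 0 were lower, beside 1.38% higher and 0.659% lower among all 7437 genes measured. For AI-Exo against PBS, 4 of 21 were higher and 0 lower, beside 2.26% and 2.88% of 7361 genes. The 4 were Marco (0.89), the zinc transporter gene Slc39a2 (0.82), the transcription factor gene Bhlhe40 (0.79) and Fabp5 (0.65). Slc39a2 was at 58.1, 73.6 and 111 CPM and Bhlhe40 at 347, 472 and 608 CPM by library, both highest in AI-Exo. Over all cells that met the rule, 8 of the 21 were higher for PD-L1 (3.23% of all genes) and 6 for AI-Exo (2.67%) against PBS, where the share of multi-marker cells also differed. Chil3, a chitinase-like secreted protein, was at 9543, 8687 and 8456 CPM in the PBS, PD-L1 and AI-Exo libraries. Pparg was at 534, 461 and 377 CPM, Siglecf at 75.7, 80.3 and 72.9 CPM, and Mrc1 at 1017, 924 and 876 CPM. Chil3, Pparg, Siglecf and Mrc1 stayed within the 1.5-fold range in every comparison. The median ratio of the list was 0.02 for PD-L1 against PBS and -0.10 for AI-Exo against PBS, beside -0.02 and -0.05 over all genes measured.

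Across all cells that met the rule, the differences between libraries were led by genes of other cell types. For PD-L1 against PBS, 251 genes were higher (3.23%) and 285 lower (3.67%) of 7768 measured, or 6.9% in either direction. The lowest were monocyte genes: F13a1, a coagulation factor of monocytes, at 118 CPM in PBS and 9.91 CPM in PD-L1, S100a4 at 1321 and 293 CPM, Plac8 at 1720 and 435 CPM, Ccr2, the receptor that brings monocytes out of marrow, at 134 and 32.7 CPM, and Adgre4 at 110 and 27.6 CPM. Ccl2, Ifitm6, Hp, Pla2g7 and Plbd1 completed the 10 lowest. Endothelial Cldn5, the tight junction protein of vessels, was at 0 CPM in PBS (which allows up to 0.683 CPM) and 102 CPM in PD-L1, and Ly6a and Calcrl, also expressed by endothelium, were at 28.7 and 62.3 CPM in PBS against 120 and 155 CPM in PD-L1. The remaining highest genes were Lsmem1, Ifitm10, Marco, Gdf15, Irs2, S100a9 and Mpp7.

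In multi-marker cells several of those genes were too low to measure or changed direction. F13a1, Ccr2, Adgre4 and Cldn5 had a mean under 10 CPM there and were not measured. Calcrl turned to a log2 ratio of -0.72 for PD-L1 against PBS. Hp, Pla2g7, Ifitm6 and Plbd1 also turned, to 0.38, 0.09, 0.03 and 0.18. S100a4 stayed lower at -0.79. Ccl2 also stayed lower, at 72.5 CPM in PBS and 16.7 CPM in PD-L1, but its ratio was 0.15 without the 5 cells of most UMIs. Lsmem1, Ifitm10 and Marco stayed higher, at 1.36, 0.95 and 0.78. Genes past the fold numbered 103 higher and 49 lower of 7437 (2.04%). The levels of Ear2-only and remaining cells stand beside the result above, and their part in it was measured only through this change of cell set.

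AI-Exo against PBS gave 205 higher (2.67%) and 338 lower (4.4%) genes of 7679, or 7.07% in either direction, over all cells that met the rule. Sparc, a matrix protein of endothelium and stroma, was at 2.96 CPM in PBS and 141 CPM in AI-Exo. Monocyte or macrophage genes were again lowest, with F13a1 at 118 and 17.3 CPM, S100a4 at 1321 and 372 CPM, Apoe, the lipid carrier protein, at 546 and 128 CPM, and Ms4a6c at 322 and 98.1 CPM. Neutrophil genes were among the highest, with S100a9 at 587 and 1917 CPM and Retnlg at 80.1 and 210 CPM. In multi-marker cells 166 genes were higher and 212 lower of 7361 (5.14%), and Sparc, F13a1, S100a4, Ms4a6c, Hp, Ccr2, Ifitm6 and Pla2g7 changed sign.

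AI-Exo against PD-L1 gave 85 higher (1.1%) and 187 lower (2.42%) genes of 7714, or 3.53% in either direction, over all cells that met the rule, and 80 higher and 107 lower of 7373 (2.54%) in multi-marker cells. Among the highest over the rule cells were Ccl5, Cxcl10, Cxcl2, Tnf, Il1b and Cxcl1, all secreted signals. Tnf stood at 236 CPM in PD-L1 and 411 CPM in AI-Exo. Hspa1b, an inducible heat shock chaperone that is a near-copy of Hspa1a, was lowest at 450 and 135 CPM, although the counts of these copies are uncertain as separate values.

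Marco and Lsmem1 were higher in both PD-L1 and AI-Exo than in PBS within multi-marker cells, and a stress cytokine and a ferritin chain were each higher in 1 of them. Marco, the scavenger receptor for bacteria and inhaled particles, was at 297 [274 to 321] CPM in PBS, 517 [489 to 545] in PD-L1 and 558 [533 to 585] in the AI-Exo library. Lsmem1, a single-pass membrane protein, was at 147 [131 to 164], 393 [369 to 419] and 401 [379 to 423] CPM. Both genes were therefore low in PBS alone, with log2 ratios of 0.78 and 1.36 for PD-L1 and 0.89 and 1.39 for AI-Exo. Gdf15, a stress-induced cytokine of the TGF-beta family, was at 627 [594 to 661], 855 [820 to 892] and 979 [945 to 1014] CPM. Ftl1, the ferritin light chain that stores iron, was at 5935 [5833 to 6039], 9085 [8968 to 9204] and 8442 [8341 to 8544] CPM. Gdf15 passed the 1.5-fold size in AI-Exo (0.63) but not in PD-L1 (0.44), and Ftl1 in PD-L1 (0.61) but not in AI-Exo (0.51).

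Shares of cells thinned to 1000 UMIs each, which leaves out 0, 4 and 4 shallower cells, gave the same order for Marco and Lsmem1. Marco was detected in 17.3% [12.6 to 22.9] of PBS, 23.2% [17.9 to 29.3] of PD-L1 and 33.5% [27.8 to 39.5] of AI-Exo multi-marker cells, and without thinning in 52.0%, 58.3% and 69.6%. The thinned Marco intervals of PBS and PD-L1 overlapped. Lsmem1 was detected in 8.44% [5.16 to 12.9], 21.0% [15.8 to 26.9] and 21.4% [16.7 to 26.9], and without thinning in 21.8%, 37.3% and 45.6%. In B cells, which should lack both genes, the thinned shares were at most 0.127% for Marco and 0.481% for Lsmem1, at median depths of 3709, 4094 and 4150 UMIs. Detection in multi-marker cells was therefore far above the level in those B cells.

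Mthfs, an enzyme of folate metabolism, was at 84.9, 178 and 195 CPM. Dhx40, an RNA helicase, was at 96.9, 186 and 210 CPM, and Ifitm10 at 66.0, 136 and 121 CPM. Cd83, a surface protein of activated antigen-presenting cells, was at 262, 457 and 371 CPM and passed the size in PD-L1 only (0.78 against 0.49). Slc7a11, the cystine importer that feeds glutathione synthesis, was at 7.38 [4.22 to 12.0], 54.9 [46.1 to 64.8] and 74.8 [65.6 to 85.0] CPM. The 5 cells with most Slc7a11 UMIs held 68.8%, 52.2% and 54.2% of them, and without those cells the log2 ratios against PBS were 1.59 and 1.88 in place of 1.90 and 2.29. Under a stricter doublet score of 0.08 the Slc7a11 ratio for AI-Exo was 1.35. Of 16 measured antioxidant genes, Slc7a11 was the single one past the size in either comparison with PBS. Among all genes 2.04% were past it in either direction for PD-L1 and 5.14% for AI-Exo, so the count does not set the list apart.

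Inflammatory genes were highest in AI-Exo within multi-marker cells. Of 17 measured cytokine and NF-kB target genes, 10 were higher and 0 lower for AI-Exo against PBS, with a median log2 ratio of 0.70, beside 2.26% higher among all genes. Under the stricter doublet score of 0.08 that median was 0.47. For PD-L1 against PBS, 3 of 16 were higher and 0 lower, with a median of 0.26, and for AI-Exo against PD-L1, 4 of 17 were higher and 0 lower, with a median of 0.34, beside 1.09% higher among all 7373 genes. Tnf, the central inflammatory cytokine, was at 143 [128 to 160] CPM in PBS, 224 [205 to 243] in PD-L1 and 460 [437 to 485] in the AI-Exo library. Nfkbia, the NF-kB inhibitor that NF-kB itself induces, was at 791 [754 to 829], 1057 [1017 to 1098] and 1350 [1310 to 1392] CPM. Both genes were lowest in PBS and highest in AI-Exo, although Nfkbia missed the 1.5-fold size for PD-L1 against PBS (0.41). Acod1, the enzyme that makes itaconate, was at 6.46, 31.4 and 72.9 CPM, with 78.6%, 68.4% and 60.9% of its UMIs in 5 cells of each library. Under the stricter score the ratio for AI-Exo against PBS went from 2.33 to 1.21 for Acod1 and from 1.62 to 1.60 for Tnf.

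Chemokines went both ways in multi-marker cells, with Cxcl1, Cxcl2 and Cxcl10 above and Pf4 and Ccl2 below PBS in AI-Exo. Most PBS UMIs of Pf4 and Ccl2 lay in a few cells, as given below. Without the 5 cells of most UMIs the Ccl2 ratio turned to 0.49. Cxcl2, which draws neutrophils through Cxcr2, was at 901 [862 to 942] CPM in PBS, 1442 [1395 to 1490] in PD-L1 and 2494 [2439 to 2550] in the AI-Exo library. Its log2 ratios were 0.67 for PD-L1 against PBS, 1.46 for AI-Exo against PBS and 0.79 for AI-Exo against PD-L1. Cxcl1, which acts on the same receptor, was at 30.5, 56.1 and 105 CPM, in the same order. Cxcl10, an interferon-induced attractant of T cells, was at 102 [89.4 to 117], 121 [108 to 135] and 322 [302 to 342] CPM, so that it set AI-Exo apart from both other libraries. Of 12 chemokines measured, 6 were higher and 3 lower for AI-Exo against PBS, beside 2.26% and 2.88% of all genes. The median ratio of the list went from 0.98 to 0.53 under the stricter doublet score. In PD-L1 against PBS 3 were higher and 3 lower, beside 1.38% and 0.659%. Over all cells that met the rule, 5 of 15 were higher and 6 lower for AI-Exo against PBS, with a median of -0.24. All genes had 2.67% higher and 4.4% lower there. For PD-L1 against PBS 0 of 15 were higher and 7 lower, beside 3.23% and 3.67%, with a median of -0.56. The list median for AI-Exo against PBS thus changed sign with the cells taken.

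The promoters of a pair of these chemokines are printed because their transcripts passed the size for AI-Exo against both other libraries and because they hold the letters that NF-kB family proteins are known to bind. The 250 bases before the start, from RefSeq (GRCm38.p6), run 5′ to 3′, and capitals mark matches to the motif GGGANNNNCC on either strand, where overlapping matches of both strands join. Cxcl2 lies on the plus strand at chr5:90903649-90903898 and Cxcl10 on the minus strand at chr5:92348890-92349139.
Cxcl2: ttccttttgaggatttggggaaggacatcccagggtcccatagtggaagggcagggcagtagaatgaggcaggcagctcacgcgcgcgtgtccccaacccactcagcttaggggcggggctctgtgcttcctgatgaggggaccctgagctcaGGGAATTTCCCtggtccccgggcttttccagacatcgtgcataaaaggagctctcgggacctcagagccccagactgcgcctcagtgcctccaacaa
Cxcl10: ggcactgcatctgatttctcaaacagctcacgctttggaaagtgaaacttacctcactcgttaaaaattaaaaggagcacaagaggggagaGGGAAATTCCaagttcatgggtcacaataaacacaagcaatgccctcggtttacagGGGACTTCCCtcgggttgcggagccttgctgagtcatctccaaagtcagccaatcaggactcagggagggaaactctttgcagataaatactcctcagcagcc
Of 10 inflammatory genes looked up, 9 had a promoter in the table and 6 of these (Cxcl2, Cxcl10, Cxcl3, Acod1, Cxcl1 and Nfkbia) held a match, whereas Tnf, Il1b and Icam1 held none in this window. Among all 27018 promoters of that length, 17.3% held a match. The 10 genes were chosen by name with earlier results of these data known, so their share beside that background is not a test. A match describes letters only, and binding was not measured.

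Cxcl2 and Tnf were also counted per cell after thinning. Cxcl2 was detected in 31.1% [25.1 to 37.6] of thinned PBS cells, 45.5% [38.9 to 52.3] of PD-L1 and 56.0% [49.8 to 62.1] of AI-Exo cells, beside 15.4%, 12.4% and 11.9% of B cells. Tnf was detected in 10.2% [6.59 to 14.9], 10.7% [6.99 to 15.5] and 27.8% [22.5 to 33.6], beside 3.37%, 2.97% and 2.66% of B cells. Without thinning the shares were 72.4%, 79.4% and 83.3% for Cxcl2 and 32.0%, 46.1% and 63.7% for Tnf. The thinned share of Tnf separated AI-Exo from the other libraries, and that of PD-L1 lay within the interval of PBS.

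Several inflammatory transcripts rested on few cells. Il1b, the secreted cytokine interleukin 1 beta, was at 58.1, 49.3 and 205 CPM, but 65.2% of its UMIs in AI-Exo lay in 5 cells. S100a8 and S100a9, which form the calprotectin of neutrophils, were at 30.0 and 32.3 CPM in PBS, 48.9 and 50.5 CPM in PD-L1 and 385 and 496 CPM in AI-Exo. In AI-Exo 86.2% of the S100a8 and 86.9% of the S100a9 UMIs lay in 5 of the 270 cells. Without the 5 cells of most UMIs in each library the ratios of S100a8 and S100a9 for AI-Exo against PBS went from 3.30 to 0.90 and from 3.58 to 1.01. Plac8, a monocyte and neutrophil gene, went from 1.98 to -0.04. Neutrophil markers as a whole summed to 94.1, 133 and 993 CPM in multi-marker cells, with all 5 above 0 in each library. Their part in the higher inflammatory levels of AI-Exo was not tested. With the 5 cells of most UMIs of the gene left out, the ratios for AI-Exo against PBS were 2.04 for Tnf, 1.65 for Cxcl2 and 2.32 for Cxcl10. Il1b, under a stricter doublet score of 0.08, went from 1.66 to 0.45.

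**Figure D3:**
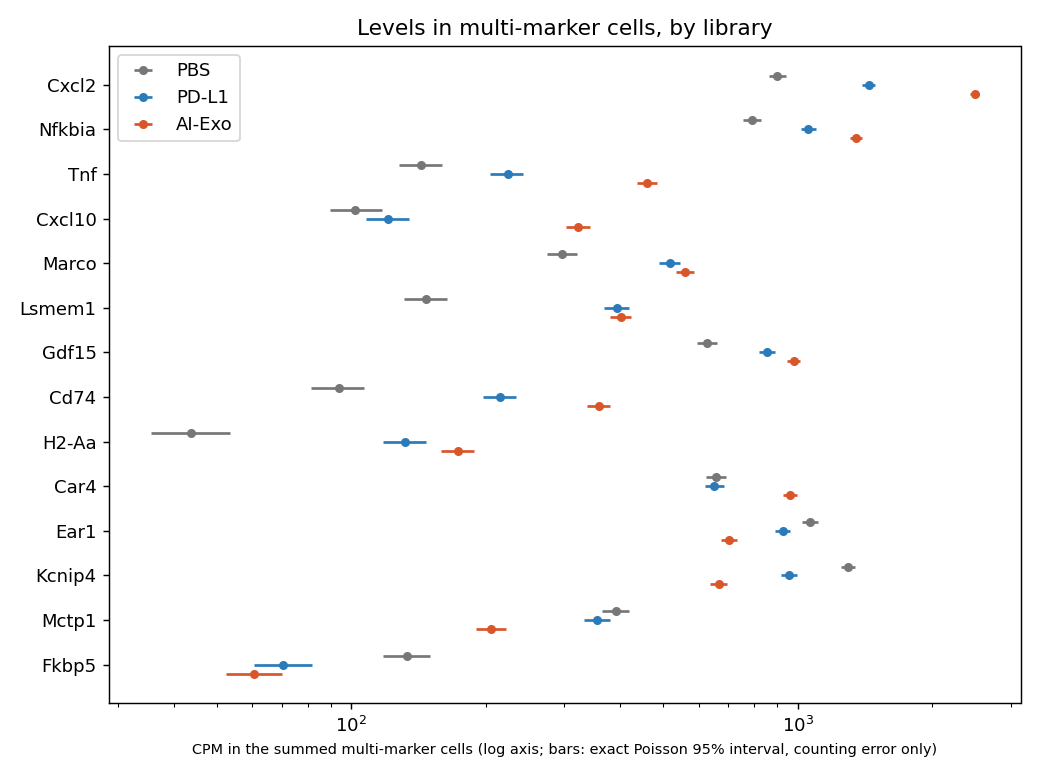
CPM in the summed multi-marker cells (horizontal log axis) of 14 named genes (vertical axis), with 1 point per library and exact Poisson intervals of counting error only. Tnf and Cxcl2 stand at 460 and 2494 CPM in AI-Exo against 143 and 901 in PBS, whereas Kcnip4 and Mctp1 stand at 665 and 206 against 1296 and 391.

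Type I interferon genes stood above PBS in both other libraries in multi-marker cells, on low counts. For AI-Exo against PBS, 10 of 13 measured genes were higher and 0 lower, with a median log2 ratio of 0.84, beside 2.26% higher among all genes. The list had 5 of 10 higher and 0 lower for PD-L1 against PBS, with a median of 0.56, beside 1.38% higher. Isg15, a ubiquitin-like antiviral protein, was at 18.9 [13.6 to 25.7] CPM in PBS, 37.0 [29.9 to 45.3] in PD-L1 and 83.7 [73.9 to 94.5] in the AI-Exo library. Ifi27l2a was at 35.1, 81.5 and 76.4 CPM. Rsad2, the antiviral enzyme viperin, was at 10.2, 40.2 and 60.3 CPM, but 100%, 93.1% and 80.5% of its UMIs lay in 5 cells of each library. Under the stricter score of 0.08 the median of the list for AI-Exo against PBS was 0.28 and that of Rsad2 was -0.06. Over all cells that met the rule, AI-Exo did not stand above PBS. There 1 of 20 genes was higher and 6 were lower for AI-Exo against PBS, beside 2.67% and 4.4% of all genes, with a median of -0.12. For PD-L1 against PBS 6 of 21 were higher and 2 lower, beside 3.23% and 3.67%, with a median of 0.39. For AI-Exo against PD-L1 the list stood at -0.64 over those cells, with 12 of 22 genes lower (2.42% of all genes). In multi-marker cells it stood at 0.32 for AI-Exo against PD-L1, with 4 of 14 higher and 0 lower. Interferon gamma response genes had medians of 0.07 for PD-L1 and 0.60 for AI-Exo against PBS in multi-marker cells, with 0 of 10 and 6 of 11 higher, beside 1.38% and 2.26% of all genes. The AI-Exo median of that list was 0.43 under the stricter score.

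MHC class II transcripts ran in opposite directions depending on which cells were taken. Over all cells that met the rule, H2-Aa, the alpha chain of I-A, was at 940, 703 and 499 CPM in the PBS, PD-L1 and AI-Exo libraries. In multi-marker cells it was at 43.8 [35.5 to 53.6], 132 [118 to 147] and 173 [159 to 188] CPM, lowest in PBS. Multi-marker cells held only 2.30%, 12.6% and 25.2% of the H2-Aa UMIs of the cells that met the rule, and 28.4%, 34.2% and 40.9% of those UMIs lay in 5 cells of each library. The level over all rule cells was therefore set mostly by Ear2-only and remaining cells. H2-Ab1, the beta chain, was at 33.2, 85.5 and 148 CPM in multi-marker cells, H2-Eb1 at 24.5, 70.8 and 141 CPM, and Cd74, the invariant chain, at 93.7 [81.2 to 107], 215 [197 to 234] and 358 [338 to 380] CPM. Within these resting multi-marker cells, all 4 genes had their lowest level in PBS and their highest in AI-Exo. H2-Eb1 had the opposite order in the dividing cells with the same markers that the rule left out. It stood there at 655 CPM in PBS (46 cells), 224 CPM in PD-L1 (57 cells) and 178 CPM in AI-Exo (132 cells). The order above is therefore given for resting cells only.

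The class II difference was narrow. Of 9 measured genes of the presentation list, 4 were higher and 0 lower in either comparison with PBS, beside 1.38% higher of all genes for PD-L1 and 2.26% for AI-Exo, and the medians were 0.07 for PD-L1 and 0.28 for AI-Exo. The ratio of H2-Aa for AI-Exo against PBS was 1.60 without the 5 cells of most UMIs in each library and 1.16 under the stricter doublet score. Thinned cells with an H2-Aa UMI were 3.11% [1.26 to 6.30], 8.48% [5.18 to 12.9] and 9.77% [6.48 to 14.0] in the PBS, PD-L1 and AI-Exo libraries, and without thinning 22.7%, 33.8% and 38.5%, so class II RNA was found in a minority of the cells of each library. The B cell marker list stood at 10.6, 11.1 and 11.1 CPM and the conventional type 2 dendritic cell list at 1.85, 1.19 and 4.12 CPM in multi-marker cells. Cd86, a costimulatory ligand of T cells, was at 19.8, 54.1 and 69.1 CPM, with 46.5%, 41.9% and 52.3% of the UMIs in 5 cells. Its ratio for AI-Exo against PBS went from 1.41 to 0.59 under the stricter doublet score.

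**Figure D4:**
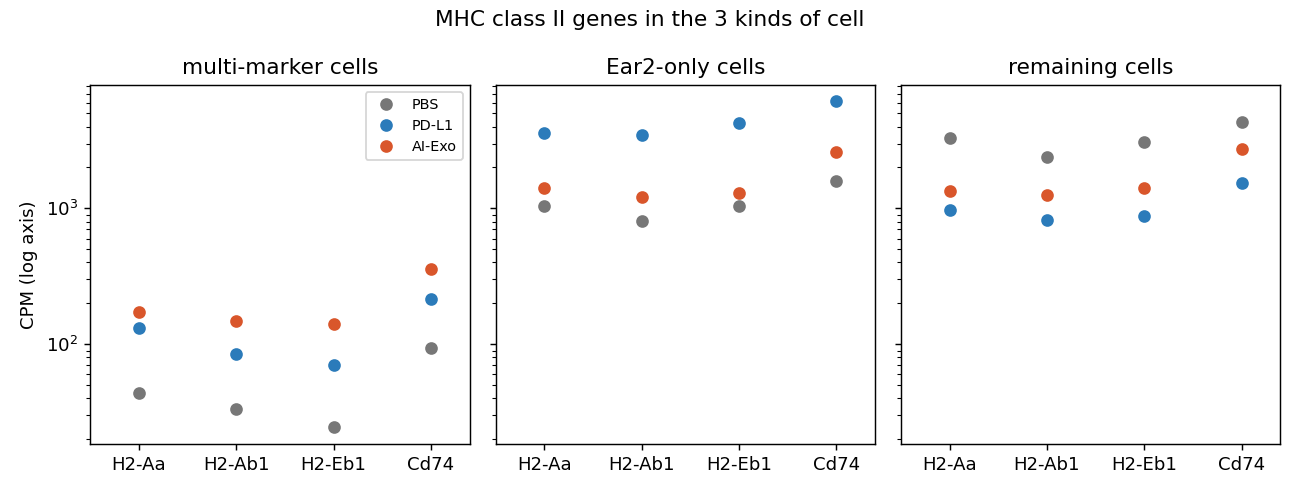
CPM (vertical log axis) of 4 MHC class II genes (horizontal axis) in multi-marker, Ear2-only and remaining cells, with 1 point per library. In multi-marker cells PBS is lowest for each gene, with H2-Aa at 43.8 CPM against 132 in PD-L1 and 173 in AI-Exo.

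Among genes lower than in PBS in multi-marker cells were Fkbp5, Tppp3 and Arhgef6. Fkbp5, a co-chaperone of the glucocorticoid receptor that glucocorticoids induce, was at 133 [118 to 150] CPM in PBS, 70.4 [60.4 to 81.6] in PD-L1 and 60.6 [52.3 to 69.8] in the AI-Exo library. Tppp3, a tubulin-binding protein, was at 192 [174 to 211], 105 [93.1 to 119] and 110 [98.5 to 122] CPM. Both were lower in PD-L1 and in AI-Exo. Tsc22d3, another glucocorticoid-induced gene, went another way, at 210, 233 and 135 CPM, and was lower in AI-Exo and not in PD-L1. Arhgef6, a guanine exchange factor, was at 198, 97.8 and 90.1 CPM, and 54.8% of its PBS UMIs lay in 5 cells. Without such cells its ratios were -0.44 for PD-L1 and -0.58 for AI-Exo in place of -0.95 and -1.06.

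A further group was low in AI-Exo and near PBS in PD-L1. Mctp1, a calcium-binding membrane protein, was at 391 [365 to 419], 356 [333 to 380] and 206 [190 to 222] CPM. Fry was at 191, 178 and 101 CPM, and Insr, the insulin receptor, at 118, 105 and 59.6 CPM. Sirt1, a deacetylase, was at 127, 115 and 61.2 CPM, and Fmr1, an RNA-binding protein, at 167, 200 and 84.0 CPM. Kcnip4, a potassium channel interacting protein, was lowest in AI-Exo and between the others in PD-L1, at 1296 [1249 to 1345], 956 [918 to 995] and 665 [637 to 694] CPM. Trerf1 and Adgrl3 were at 183 and 223 CPM in PBS, 146 and 187 in PD-L1 and 89.1 and 117 in AI-Exo. None of the genes of this group had more than 43.8% of its UMIs in 5 cells of a library.

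Pf4, a chemokine of platelets and macrophages, and Ccl2, which attracts monocytes, were higher in PBS through a few cells. Pf4 was at 85.8, 6.36 and 16.2 CPM, with 93.5% of its PBS UMIs in 5 cells. Ccl2 was at 72.5, 16.7 and 18.4 CPM, with 93.0% of its PBS UMIs in 5 cells, and its ratios turned to 0.15 and 0.49 without such cells. Arg1, the arginase of alternatively activated macrophages, was at 23.1, 1.19 and 33.6 CPM, and 5 cells held 100%, 100% and 98.1% of its UMIs. Nos2, the inducible nitric oxide synthase, had 0 UMIs in PBS and PD-L1 and was at 5.39 CPM in AI-Exo, all in at most 5 cells. A count of 0 (taken as under 3 counts) allows up to 1.38 CPM in PBS and 1.19 CPM in PD-L1.

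Few lipid and metabolic genes passed the size in multi-marker cells, and few of all genes did. Past it in either direction were 2.04% of all genes for PD-L1 and 5.14% for AI-Exo against PBS. For AI-Exo against PD-L1 the share was 2.54%. Counts of 0 or 1 in the lists below are near those shares and do not set the lists apart. Of 13 measured genes of cholesterol synthesis, 0 were higher and 2 lower for PD-L1 against PBS, beside 0.659% lower of all genes, and 0 of 14 passed for AI-Exo. They were Idi1, an isomerase of the pathway, at 54.5, 26.2 and 50.7 CPM, and Insig1, its sterol-sensing regulator, at 91.8, 55.7 and 58.7 CPM. Idi1 was also the 1 gene of 15 that was higher for AI-Exo against PD-L1 (0.74). Of 19 measured genes of surfactant and lipid handling, Fabp5, a fatty acid binding protein, was the single one past the size for AI-Exo against PBS, at 625, 700 and 989 CPM in the PBS, PD-L1 and AI-Exo libraries. For PD-L1 against PBS 0 of 18 were past it. Of 16 glycolysis genes and of 22 nuclear genes of the respiratory chain, 0 were past the size in either direction in each of the 3 comparisons. Hilpda, a lipid droplet protein that hypoxia induces, was at 82.6 [70.9 to 95.6], 115 [102 to 129] and 207 [192 to 224] CPM and was the single one of 10 measured hypoxia genes past the size for AI-Exo against PBS. For PD-L1 against PBS 0 of these 10 were past it.

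Core autophagy genes, of the process that the title of the series names, had 1 member past the size in the comparisons of multi-marker cells with PBS. Of 24 measured core autophagy genes 0 were higher and 0 lower for PD-L1 against PBS, and 0 were higher and 1 lower for AI-Exo against PBS, beside 2.04% and 5.14% of all genes in either direction. The gene that was lower was Atg10, an enzyme that conjugates Atg12 to Atg5, with ratios of -0.56 in PD-L1 and -0.59 in AI-Exo. Sqstm1, the receptor p62 that carries cargo to the autophagosome, was at 942 [901 to 984], 987 [948 to 1026] and 895 [862 to 929] CPM. Tfeb, the transcription factor of lysosome genes, was at 58.6, 59.7 and 58.0 CPM. The medians of the core list were -0.03 and -0.01 against PBS, beside -0.02 and -0.05 over all genes. Of the autophagy receptors and lysosome regulators, 1 of 14 measured was higher for PD-L1 and 1 of 13 for AI-Exo against PBS, in both cases Optn, an autophagy receptor, at 8.31, 23.1 and 17.8 CPM. Of 30 lysosome genes, 0 were past the size in either direction in each of the 3 comparisons of multi-marker cells. Over all cells that met the rule, 2 of 30 lysosome genes were higher for PD-L1 and 1 for AI-Exo against PBS. None was lower. Of core autophagy genes there, 1 of 24 was higher for PD-L1 and 0 of 26 were past the size for AI-Exo. Among all genes 6.9% and 7.07% were past it in either direction. RNA levels do not measure the flow of autophagy.

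The ligands of PD-1 were within the 1.5-fold size in every comparison of multi-marker cells. Cd274, which encodes PD-L1, was at 301 [278 to 325] CPM in PBS, 302 [281 to 325] in PD-L1 and 278 [260 to 297] in the AI-Exo library, with overlapping intervals. Pdcd1lg2, the other ligand, was at 20.8, 19.5 and 22.2 CPM. Of 11 measured genes of checkpoint ligands and costimulation, 1 (Cd86) was higher for PD-L1 and 2 (Cd80 and Cd86) for AI-Exo against PBS, beside 1.38% and 2.26% of all genes, and 0 were lower.

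**Figure D5:**
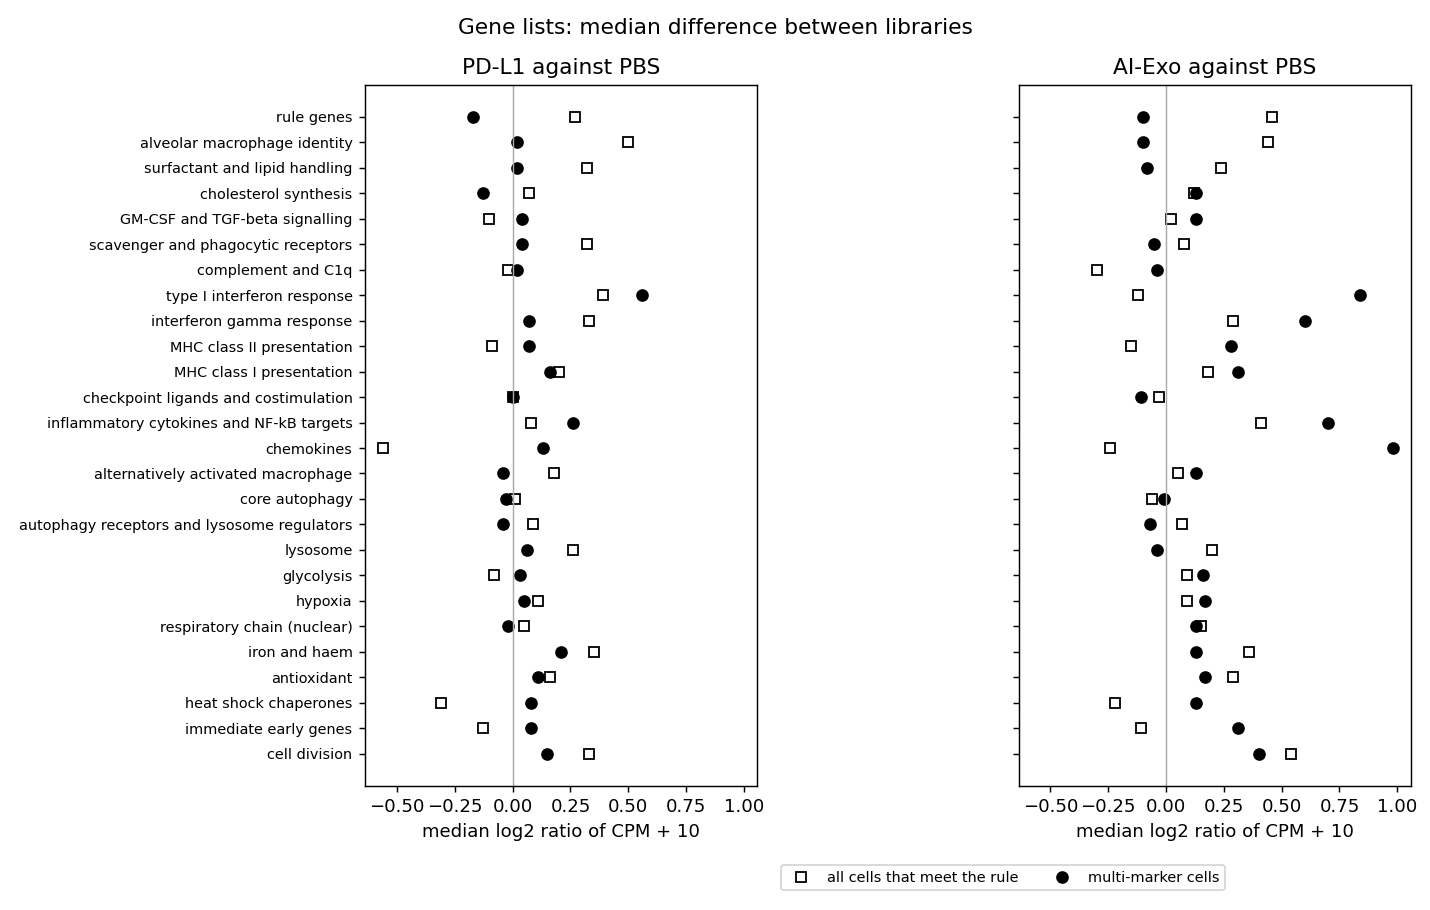
Median log2 ratio (horizontal axis) of each gene list (vertical axis) for PD-L1 against PBS and AI-Exo against PBS, over all cells that met the rule (open squares) and in multi-marker cells (filled circles). The type I interferon list lies at 0.84 and the core autophagy list at -0.01 for AI-Exo against PBS in multi-marker cells.

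Dividing cells with the same markers were left out by the rule and were counted beside it. Among cells with UMIs of at least 4 of the 6 genes, 51 of 291 (17.5% [13.3 to 22.4]) in PBS, 66 of 306 (21.6% [17.1 to 26.6]) in PD-L1 and 148 of 438 (33.8% [29.4 to 38.4]) in AI-Exo had a UMI of Mki67, Top2a or Birc5. Thinned to 1000 UMIs the shares were 5.50% [3.18 to 8.78], 8.61% [5.70 to 12.4] and 12.2% [9.28 to 15.7], beside 2.79%, 2.28% and 2.40% of B cells. AI-Exo was thus highest by both measures, and its thinned interval lay above that of PBS and overlapped that of PD-L1. The median depth of these cells was 10059, 11796.5 and 12692 UMIs. The rule therefore set aside a larger share of marker-bearing cells in AI-Exo than in PBS.

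Resting multi-marker cells were also set beside the dividing ones. Against 46, 57 and 132 dividing cells in the PBS, PD-L1 and AI-Exo libraries, 4 genes (0.0517%) of 7735 were higher in all 3 libraries in the resting cells and 310 (4.01%) were lower. All 20 genes of the cell division list were lower in each library, which the rule in part fixed. None of the 21 identity genes passed the size in all 3 libraries, and their median ratio was 0.16, beside -0.06 over all genes.

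Against macrophages marked by C1q (120, 100 and 130 cells with at least 3 UMIs of C1q genes and under 3 of the rule genes), multi-marker cells differed in many genes in each library. The C1q cells also held neutrophil markers, which summed to 1235, 4246 and 12547 CPM, against 94.1, 133 and 993 CPM in multi-marker cells. As both sets were chosen by expression, the contrast is a description: 946 of 7705 genes (12.3%) were higher in all 3 libraries and 869 (11.3%) lower. Atp6v0d2, a subunit of the proton pump, was at 766, 748 and 754 CPM in multi-marker cells and at 7.01, 42.5 and 11.5 CPM in C1q cells. Cidec, a lipid droplet protein, was at 266, 274 and 244 CPM against 0.779, 0 and 0 CPM, and Flvcr2, a transporter, at 291, 352 and 248 CPM against 0 in each library. A level of 0 in C1q cells allows up to 2.34, 3.75 and 2.15 CPM in the PBS, PD-L1 and AI-Exo libraries. Apoe was at 66.0, 56.5 and 56.1 CPM against 7211, 7073 and 2015 CPM. Of 20 measured chemokines 16 were lower in all 3 libraries and 1 was higher, and of 23 type I interferon genes 21 were lower and 0 higher. MHC class II stayed far below the C1q cells even in AI-Exo, where H2-Aa was at 173 CPM against 2978 CPM.

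Ear2-only cells were set beside cells outside the rule that carried nonclassical monocyte markers, 77, 60 and 116 cells by library. These comparison cells had at least 2 UMIs of Treml4 and Cd300e, under 3 of the rule genes and under 3 of C1q genes. Their neutrophil markers summed to 7140, 21962 and 20910 CPM in PBS, PD-L1 and AI-Exo. That was above their nonclassical monocyte markers, at 2799, 3853 and 4075 CPM, so they were not monocytes alone. Again both sets were chosen by expression, so this is a description. Of 7138 genes, 37 (0.518%) were higher in all 3 libraries in the Ear2-only cells and 55 (0.771%) were lower. A gene that differed in only some libraries is not counted, so the low counts do not make the sets alike. H2-Eb1 was at 1047, 4222 and 1306 CPM in Ear2-only cells against 1421, 359 and 869 CPM. Of the 9 nonclassical monocyte markers, 0 were higher and 1 lower in all 3, with a median ratio of -0.03, beside 0.00 over all genes. These markers include the genes that chose the comparison cells. Mgl2, a lectin of macrophages and dendritic cells, was at 60.7, 271 and 177 CPM in Ear2-only cells. In the comparison cells it was at 0 (which allows up to 5.78), 3.26 and 7.46 CPM. Of the 5 neutrophil markers 3 were lower in all 3 libraries, with a median of -1.48. Of the 5 classical monocyte markers 2, Chil3 among them, were higher (median 1.10), and of 3 measured markers of conventional type 2 dendritic cells 2 were higher (median 1.83).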

How the data were processed

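The authors deposited raw UMI counts, as whole numbers, for each gene in each barcode. The file headers name Cell Ranger 7.1.0 and the submitters' processing notes list 3.0.2; the labels' protocols give 10x Genomics 3′ chemistry. For the genome build and for the counting of introns the sources used here give nothing. Cells were barcodes with at least 500 UMIs, 200 genes and at most 20% mitochondrial UMIs, which gave 9359, 9697 and 10457 cells in the PBS, PD-L1 and AI-Exo libraries with medians of 4380, 3948 and 4425 UMIs. Scrublet (scanpy 1.11.5) scored doublets. The UMIs of a set of cells were summed per library and divided by the sum to give CPM. Groups of 1 library allow no test. Free RNA came from barcodes of at most 100 UMIs. The calling script was tested on simulated counts. Per comparison the text takes the 10 highest and 10 lowest genes at 100 CPM and 50 UMIs or more, leaving out mitochondrial, ribosomal, haemoglobin, sex-linked, antigen receptor and unnamed genes, and members of the gene lists. The members and lists were chosen with earlier results of these data known. Of 38 symbols shared by identifiers the first was used, and 3 list genes were not matched. The multi-marker set and its alternatives were added after the data were seen.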

Additional observations from a re-analysis of the deposited data

How the results depend on the processing

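No paired analysis was possible because each group was 1 library, and for the same reason no library could be left out of its group. Shares of cells that met the rule, in the order PBS, PD-L1 and AI-Exo, were 3.60%, 3.10% and 3.13% with a sum of at least 6 UMIs, and 2.86%, 2.74% and 2.86% with at least 10. They were 2.95%, 3.04% and 3.17% with Ear2 left out of the sum, 2.93%, 2.91% and 3.07% with Ear2 and Car4 left out, and 3.03%, 3.11% and 3.11% with at least 2 of the 6 genes. Multi-marker cells were 2.53%, 2.49% and 2.76% of cells with a score under 0.15. With at least 2000 UMIs a cell the PBS share was 5.97%. The excess of PBS was therefore absent once Ear2 was left out or a second marker was asked for.

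Genes past the fold for PD-L1 against PBS and AI-Exo against PBS numbered 254 and 318 with a sum of 10 UMIs, 326 and 316 without Ear2, 233 and 324 without Ear2 and Car4, and 197 and 334 with 2 genes, and PD-L1 against PBS gave 152 in multi-marker cells. With AI-Exo against PD-L1 as the last value, they numbered 925, 962 and 525 with a pseudocount of 1, 1698, 1740 and 1494 after thinning to 1000 UMIs, 214, 269 and 78 at a minimum of 50 CPM, and 169, 137 and 79 at a fold of 2. In multi-marker cells they numbered 505, 811 and 528 with a pseudocount of 1, and 1870, 2140 and 1963 after thinning. Thinning discards UMIs, so that few counts stand behind each gene.

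Of 68 called log2 ratios of genes and list medians over the rule cells, 11 changed sign under at least 1 of 14 planned settings. Sparc for AI-Exo against PBS and against PD-L1 was at -0.14 and -0.78 with a sum of 6, -0.19 and -0.25 with a sum of 10, and -0.24 and -0.16 without Ear2 and Car4. Without Ear2, Hp for PD-L1 and AI-Exo against PBS was at 0.39 and 0.40 and Pla2g7 for AI-Exo at 0.18. Without Ear2 and Car4, Hp was at 0.35 and 0.42, Pla2g7 at 0.16, and Calcrl and Ly6a for PD-L1 against PBS at -0.47 and -0.41. In that setting, for AI-Exo against PD-L1, Ly6a was at 0.69, Cldn5 at 0.04 and the type I interferon median at 0.02. Ccl2 for AI-Exo against PD-L1 was at -0.06 as a mean over cells.

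In multi-marker cells 21 of the 68 changed sign. For PD-L1 against PBS these were Calcrl at -0.72, Plbd1 at 0.18, Ifitm6 at 0.03, Hp at 0.38 and Pla2g7 at 0.09. For AI-Exo against PBS they were S100a4 at 0.33, Ifitm6 at 0.85, Hp at 0.64, Ccr2 at 0.68, Sparc at -0.28, F13a1 at 0.49, Pla2g7 at 0.37, Ms4a6c at 0.27, H2-Aa at 1.76, H2-Ab1 at 1.87 and H2-Eb1 at 2.14. For AI-Exo against PD-L1 they were the type I interferon median at 0.32, Calcrl at 0.07, Sparc at -0.27, Ly6a at 0.50 and Cldn5 at 0.09. The cause was not tested beyond the change of cells.

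Of 100 called values in multi-marker cells, 5 changed sign under 6 settings added after the data were seen. Rsad2 for AI-Exo against PBS was at -0.06 under a doublet score of 0.08. Without the 5 cells of most UMIs, Ccl2 was at 0.15 for PD-L1 and 0.49 for AI-Exo against PBS, and Plac8 for AI-Exo against PBS at -0.04. Pf4 for AI-Exo against PD-L1 was at -0.14 after thinning. Counts limit what can be said of genes under about 20 CPM, and 1 library per group limits every comparison.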
